A study of Mus musculus with 8 samples.

Results

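The genes described here were 10 mouse genes that carry glucose through glycolysis to lactate: the glucose transporters Slc2a1 and Slc2a3, the glycolytic enzymes Hk2, Pfkp, Pgk1, Eno1 and Pkm, the lactate dehydrogenase subunit Ldha, the lactate exporter Slc16a3 and the pyruvate dehydrogenase kinase Pdk1. They were chosen by name from the 32567 genes of the RNA-seq table, with no measured value in the rule. All 10 were measured and passed a limit on low expression, an average log2 CPM (a gene's counts scaled to a common library total) above 0 over the libraries, as did 15492 genes in all. Poly-A-plus RNA was sequenced from embryonic stem cells (ESC) of a wild-type parental line and of a line homozygous for the Hdh ex4/5 null allele of Htt (Htt-null), and from cells of both genotypes differentiated as embryoid bodies with retinoic acid (RA-DIFF). ESC were kept on irradiated mouse embryonic fibroblasts or on gelatin, and were taken off the feeder cells before embryoid bodies were formed. Each of the 4 conditions had 1 library, so no difference below has a replicate check and no p-value is given. The labels name no more than 1 line per genotype, so genotype and cell line cannot be told apart.

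Glycolysis splits glucose into pyruvate in the cytosol and yields ATP without oxygen. Pluripotent stem cells are known for a high glycolytic flux and release lactate even when oxygen is present, and many of these genes are known targets of the hypoxia-inducible factors (HIF) and of Myc. Pdk1 phosphorylates and so inhibits pyruvate dehydrogenase, which limits the oxidation of pyruvate in the mitochondria, and Slc16a3 (MCT4) carries lactate out of the cell together with a proton.

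The libraries held between 63617410 and 110569127 counts on genes, and each of the 10 genes had between 515 and 187974 counts, with a counting error (upper or lower arm of the 95% Wilson interval) of 0.452% to 8.64% of the value. Levels are CPM scaled by the trimmed mean of M-values (TMM), and the intervals hold counting error alone, because PCR copies of a molecule are counted as separate reads. Htt, set beside the labels, was at 166 CPM in wild-type ESC and 111 CPM in Htt-null ESC, but at 73.3 CPM in the RA-DIFF cells labelled wild type and 98.7 CPM in those labelled Htt-null. Counts are over the whole gene, so exons outside the targeted part are included. The second pair runs opposite to its labels. The log2 ratios of Htt-null over wild type were -0.58 in ESC and 0.43 in RA-DIFF, both within the study's fold limit of 0.75. With whole-gene counts and 1 library each, Htt cannot settle the labels. The RA-DIFF libraries are therefore called by their labels, and each direction drawn between them rests on the labels. The RA-DIFF libraries also differed in cell type markers. In the library labelled Htt-null, 8 of 10 neuron markers were lower by more than 0.75 on the log2 scale, the study's fold limit, with a summed level of 1321 against 2857 CPM, and 9 of 10 fibroblast and mesenchyme markers were higher by more than this limit, with 2407 against 617 CPM. Of all 15492 genes, 8.99% were lower and 11.7% higher past the same limit, which also holds for the other marker counts given here. No marker of either list was at 0 in these 2 libraries. In the same order, neural progenitor markers summed to 5195 against 3829 CPM (1 of 8 higher and 3 lower), with Vim alone at 2905.6 against 1711.5 CPM. Endothelial markers summed to 82.0 against 28.9 CPM (2 of 7 tested higher and 1 lower), with Kdr alone at 71.7 against 17.9 CPM. Endoderm markers summed to 58.9 against 17.9 CPM (2 of 5 tested higher and 0 lower), with Dab2 at 42.8 against 12.3 CPM and Foxa2 at 12.3 against 1.88 CPM. The pluripotency markers summed to 6155 and 5261 CPM in wild-type and Htt-null ESC and to 276 and 228 CPM in the RA-DIFF libraries labelled wild type and Htt-null. Sox2, which is also expressed in other cell types, alone was at 213 and 212 CPM of these RA-DIFF sums. In RA-DIFF, 8 of the 10 were lower in the library labelled Htt-null. In bulk RNA, fewer cells of a type and less RNA per cell cannot be told apart.

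To show the regulatory sequence of these genes beside their levels, promoter windows were taken from RefSeq on GRCm38.p6, 250 bases upstream of the annotated start, which 9 of the 10 genes have (all but Slc2a3). The core sequences bound by HIF, ACGTG and GCGTG, were searched on both strands. At least 1 of them was in 8 of the 9 windows, against 56.5% of the windows of 10919 genes above the low limit. ACGTG was in 5 windows, against 21.4%. The E-box CACGTG, a sequence bound by Myc and Max, was only in that of Ldha among the 9, at 2 places, against 8.35% of windows; each CACGTG also contains ACGTG on both strands. Windows are printed for the 3 genes with the largest differences between the RA-DIFF libraries. That of Pgk1 is added because its level did not pass the fold limit with RA under either label. Between the RA-DIFF libraries Pgk1 is no contrast to the 3, at a log2 ratio of -0.72 by the labels. Each is written 5′ to 3′ on the plus strand, the strand of its gene, and capitals mark ACGTG or GCGTG on either strand. The windows are chr7:46845554-46845803 (Ldha), chr11:120948817-120949066 (Slc16a3), chr2:71872974-71873223 (Pdk1) and chrX:106186850-106187099 (Pgk1). The Ldha and Slc16a3 windows lie inside the span of the deposited gene, 4329 and 587 bases past its first base for the RefSeq start, and the last few bases of the Slc16a3 window lie in a first exon of another annotated transcript.
Ldha: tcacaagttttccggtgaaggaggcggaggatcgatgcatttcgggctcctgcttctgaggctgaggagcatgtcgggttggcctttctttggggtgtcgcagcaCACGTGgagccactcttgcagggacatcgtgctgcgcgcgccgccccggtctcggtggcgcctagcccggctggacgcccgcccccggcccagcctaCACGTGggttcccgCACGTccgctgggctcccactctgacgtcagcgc
Slc16a3: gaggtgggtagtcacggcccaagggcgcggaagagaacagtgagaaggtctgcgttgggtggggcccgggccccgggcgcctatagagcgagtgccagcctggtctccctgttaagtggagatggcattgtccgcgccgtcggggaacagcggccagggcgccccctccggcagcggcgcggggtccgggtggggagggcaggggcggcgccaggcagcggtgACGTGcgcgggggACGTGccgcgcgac
Pdk1: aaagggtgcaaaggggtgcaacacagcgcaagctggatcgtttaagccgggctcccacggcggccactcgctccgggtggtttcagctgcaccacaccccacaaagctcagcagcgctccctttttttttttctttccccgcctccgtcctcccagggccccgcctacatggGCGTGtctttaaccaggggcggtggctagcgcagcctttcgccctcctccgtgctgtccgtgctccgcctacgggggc
Pgk1: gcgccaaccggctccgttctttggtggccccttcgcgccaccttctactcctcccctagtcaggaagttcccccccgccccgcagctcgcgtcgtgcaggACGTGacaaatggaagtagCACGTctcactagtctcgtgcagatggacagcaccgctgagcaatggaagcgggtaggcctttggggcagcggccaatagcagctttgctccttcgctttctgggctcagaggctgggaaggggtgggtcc
In these windows Ldha has the E-box at both places and a further ACGTG, Slc16a3 has a pair of ACGTG matches close to its start, Pdk1 has a single GCGTG and Pgk1 has ACGTG on each strand. A match describes the letters only and is no measure of binding.

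The 10 genes were lower in RA-DIFF than in ESC in most instances. Together they took 0.681% of all counts in wild-type ESC and 0.590% in Htt-null ESC, but 0.289% in the RA-DIFF cells labelled wild type and 0.182% in those labelled Htt-null. Where a pair of RA ratios is given, the cells labelled wild type come first. In these, 7 of 10 were lower by more than the fold limit of 0.75 and 0 were higher, where 26.1% of the 15492 genes were lower and 33.9% higher. In the cells labelled Htt-null, 9 of 10 were lower and 0 higher, where 24.8% of genes were lower and 34.3% higher. The median log2 ratio of the 10 genes was -1.30 in the cells labelled wild type, against 0.12 over all genes tested, and -1.50 in those labelled Htt-null, against 0.17. With an exact test at an assumed dispersion of 0.1 added, as the study's methods state, 5 of 10 were lower and 0 higher in the cells labelled wild type (17.3% and 23.8% of genes), and 7 lower and 0 higher in those labelled Htt-null (15.9% and 24% of genes). With the RA-DIFF labels exchanged, 9 of 10 were lower for wild type and 6 of 10 for Htt-null, so the labels decide which had more genes lower. Every library serves in both an RA comparison and a genotype comparison, so these are not independent of each other.

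**Figure D1:**
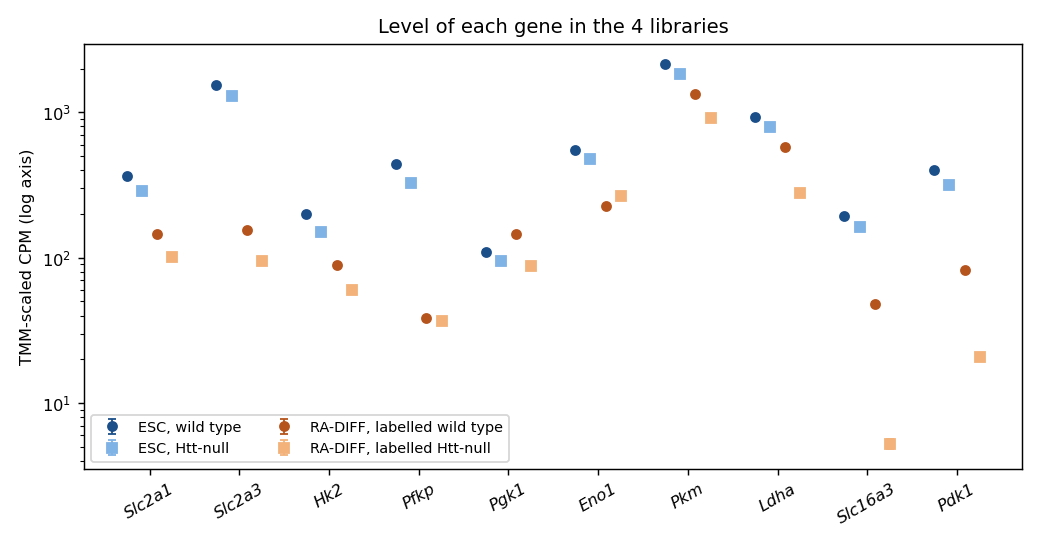
TMM-scaled CPM on a log axis of the 10 genes in the 4 libraries, 1 point per library, with 95% Wilson intervals of counting error that are mostly smaller than the points. For 8 of the 10 genes the points descend from wild-type ESC to the RA-DIFF library labelled Htt-null, while Pgk1 was highest in the RA-DIFF cells labelled wild type (145 CPM).

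Both glucose transporters were lower with RA past the limit, Slc2a3 by more than Slc2a1. Slc2a3 (GLUT3), a transporter of high affinity (chromosome 6, 122727809-122801640), was at 1553 CPM in wild-type ESC, 1302 CPM in Htt-null ESC, 156 CPM in the RA-DIFF cells labelled wild type and 95.5 CPM in those labelled Htt-null. Both ESC libraries thus stood far above both RA-DIFF libraries, by log2 ratios of -3.32 in the cells labelled wild type and -3.77 in those labelled Htt-null. Slc2a1 (GLUT1), the widely expressed basal transporter (chromosome 4, 119108711-119137983), was at 365 and 287 CPM in wild-type and Htt-null ESC and at 145 and 102 CPM in the RA-DIFF libraries labelled wild type and Htt-null. Its log2 ratios were -1.33 and -1.50, in the same order. Per kilobase of exon, Slc2a3 made up 67.3% and 68.7% of the sum of both transporters in ESC but 34.2% and 31.2% in RA-DIFF, so the more abundant of the pair was Slc2a3 in ESC and Slc2a1 in RA-DIFF.

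The enzymes that commit glucose to the pathway were also lower. Hk2, a hexokinase that traps glucose as glucose 6-phosphate, had 201 and 150.4 CPM in wild-type and Htt-null ESC, and 89.8 and 59.6 CPM in the RA-DIFF libraries labelled wild type and Htt-null, with log2 ratios of -1.16 and -1.34. The other broadly expressed hexokinase, Hk1, did not pass the limit (log2 ratios -0.24 and -0.51), and the share of Hk2 in the pair, per kilobase of exon, was 78.0% and 70.9% in ESC and 65.2% and 57.9% in RA-DIFF. Pfkp, the platelet-type subunit of phosphofructokinase (chromosome 13, 6579768-6648777), had 438 and 326 CPM in ESC and 38.2 and 36.5 CPM in RA-DIFF, where the counting intervals of both libraries overlapped. Its log2 ratios of -3.52 and -3.16 made it the gene with the lowest level in RA-DIFF, relative to ESC, of the 10 in the cells labelled wild type. With the RA-DIFF labels exchanged it was not the lowest there, since Slc16a3 was at -5.20, Pdk1 at -4.29 and Slc2a3 at -4.02 against -3.59 for Pfkp. Pfkl, the liver-type subunit, was at 362 and 262 CPM in ESC and at 218 and 92.2 CPM in RA-DIFF, and its log2 ratio passed the limit in the cells labelled Htt-null (-1.50) but not in those labelled wild type (-0.73). Per kilobase of exon, Pfkp was 37.6% and 38.3% of the sum of both in ESC and 8.02% and 16.5% in RA-DIFF. These shares rest on exon lengths of 13401 bases for Pfkp and 6675 for Pfkl, and by CPM Pfkp was above Pfkl in both ESC libraries. The muscle-type subunit Pfkm did not pass the limit (0.72 and 0.55), and of all 3 subunits Pfkp made up 30.7% and 28.5% in ESC and 4.21% and 5.64% in RA-DIFF. The exons of Pfkp share 748 bases with those of Pitrm1 on the opposite strand, which had 13198 to 18422 counts per library. No strand setting of the counting is named beyond a general statement of default settings. Whether reads of the overlap were separated by strand was not tested.

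**Figure D2:**
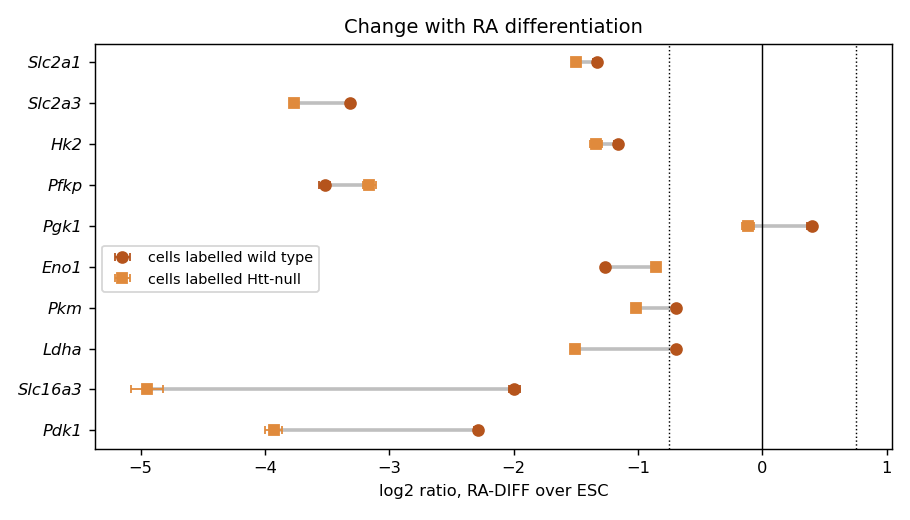
Log2 ratio of RA-DIFF over ESC for the 10 genes, in cells labelled wild type (circles) and Htt-null (squares), with 95% intervals of counting error, where dotted lines mark the fold limit of 0.75. By the labels, Slc16a3 lay at -2.00 and -4.95 and Pgk1 at 0.40 and -0.12, while with the RA-DIFF labels exchanged they would lie at -5.20 and -1.74, and at -0.33 and 0.61.

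By the labels, the later enzymes had log2 ratios from 0.40 (Pgk1) to -1.50 (Ldha). Pgk1, phosphoglycerate kinase (X chromosome, 106187100-106203699), had 110.3 and 95.2 CPM in ESC and 145 and 87.9 CPM in RA-DIFF, and passed the limit in neither comparison (log2 ratios 0.40 and -0.12). Its chromosome had medians of 0.40 and 0.50 in these comparisons over its 544 genes. Eno1, enolase, had 549 and 479 CPM in ESC and 228 and 265 CPM in RA-DIFF (-1.27 and -0.85). Pkm, pyruvate kinase, was at 2168 and 1848 CPM in ESC and 1342 and 915 CPM in RA-DIFF, with log2 ratios of -0.69 and -1.01. Per kilobase of exon it had the highest level of the 10 in every library, at 433 and 369.6 CPM per kilobase in ESC and 268 and 183 in RA-DIFF, and its share of the 10 genes' counts was 31.4% and 32.1% in ESC and 47.1% and 49.0% in RA-DIFF. Ldha, which reduces pyruvate to lactate, followed it per kilobase in every library. It had 927 and 793 CPM in ESC, 575 CPM in the RA-DIFF cells labelled wild type and 279.6 CPM in those labelled Htt-null, so only the latter passed the limit (-0.69 and -1.50). Nearly identical copies of at least 200 bases and 95% identity were found for Pgk1 (4), Eno1 (3), Pkm (2) and Ldha (4) and for none of the other 6, and counting left out reads that map to several places. The copies covered 68.8% of the Pgk1 transcript, 85.6% of that of Eno1, 65.5% of that of Pkm and 55.0% of that of Ldha, so the levels of these 4 genes, and their ranks per kilobase, are uncertain. Counts placed on the copies, which do not measure the reads left out, were 8.43% to 15.7% of those of Eno1 and at most 1.81% for the other 3.

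Of the 10 genes, the lactate exporter and the kinase that restrains pyruvate oxidation differed most between the 2 RA-DIFF libraries. Slc16a3 (chromosome 11, 120948480-120960868) had 193 and 162 CPM in wild-type and Htt-null ESC, 48.4 CPM (5422 counts) in the RA-DIFF cells labelled wild type and 5.23 CPM (515 counts) in those labelled Htt-null. Its log2 ratios over ESC were -2.00 and -4.95. Pdk1 (chromosome 2, 71873224-71903858) had 403 and 314 CPM in ESC, 82.4 CPM (9230 counts) in the RA-DIFF cells labelled wild type and 20.6 CPM (2028 counts) in those labelled Htt-null, with log2 ratios of -2.29 and -3.93. Their paralogs were not lower between the RA-DIFF labels. Slc16a1 (MCT1), another proton-linked lactate carrier, was lower with RA (-1.72 and -1.27) but was at 60.3 and 75.6 CPM in the RA-DIFF libraries labelled wild type and Htt-null, so that the share of Slc16a3 in the pair per kilobase of exon was 44.6% and 42.6% in ESC, 40.0% in the library labelled wild type and 5.45% in that labelled Htt-null. Pdk3, another kinase of the family, was at 35.6 and 42.9 CPM in RA-DIFF, and Pdk1 was 67.0% and 61.0% of that pair in ESC, 43.3% in the library labelled wild type and 13.6% in that labelled Htt-null. Pdk2 had log2 ratios of 0.80 and 0.94 with RA and Pdk4 of -3.43 and -2.57.

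**Figure D3:**
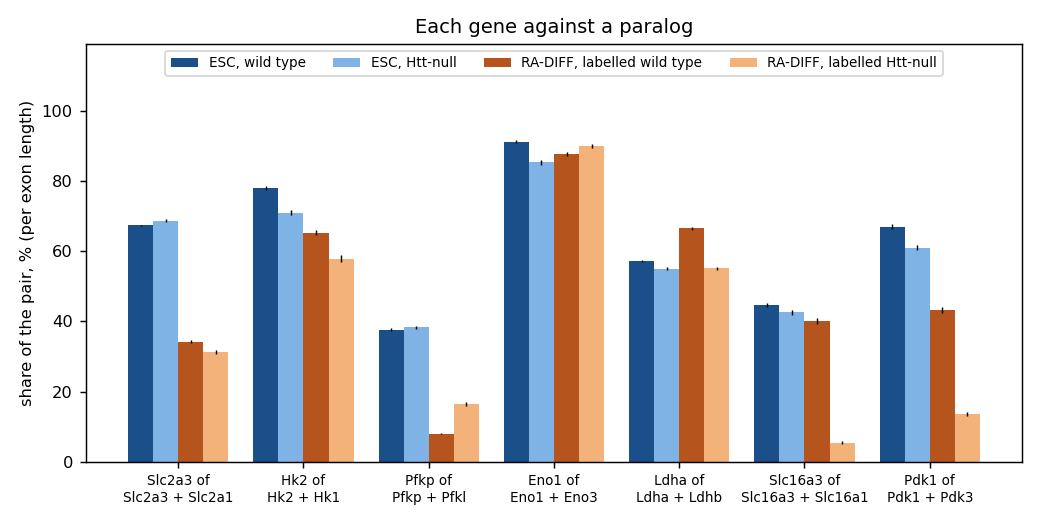
Share, in percent per exon length, of each gene in the sum of it and 1 named paralog, with 1 bar per library and 95% intervals of counting error. Exon length is that of all annotated exons of a gene together, and the shares depend on it. The share of Slc16a3 was 40.0% in the RA-DIFF cells labelled wild type and 5.45% in those labelled Htt-null, while the shares of Eno1 lay between 85.3% and 91.2% in all 4 libraries.

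The genotype comparison in ESC gave small differences in 1 direction. No gene of the 10 passed the limit (0 lower and 0 higher, where 3.47% of all genes tested were lower and 5.14% higher, and 0.645% and 0.981% with the added test). Each of the 10 was lower in Htt-null ESC, by log2 ratios from -0.20 (Eno1) to -0.43 (Pfkp), with a median of -0.25 against -0.04 over all genes, of which 54.7% were below 0. Hk2 (-0.42), Pdk1 (-0.36) and Slc2a1 (-0.34) followed Pfkp. The ratios were larger than their counting error, whose intervals did not include 0 for any of the 10, but the spread between cultures is not known. Slc16a3 (-0.25) lies on chromosome 11, whose 1223 genes above the low limit had a median of 0.22 in this comparison. The chromosomes of the other genes had medians from -0.11 to -0.07. In the same comparison 6 of 10 fibroblast and mesenchyme markers were lower and 1 higher past the limit in Htt-null ESC (median -0.84), with a summed level of 25.2 against 39.3 CPM, and Lum was at 0 in wild-type and Dcn in Htt-null ESC. The part of remaining feeder cells in the differences between the ESC libraries was not tested.

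In RA-DIFF, by the labels, 3 of 10 genes were lower by more than the limit and 0 were higher, where 8.99% of genes were lower and 11.7% higher. With the added test at a dispersion of 0.1, 2 were lower (Slc16a3 and Pdk1) and 0 higher, where 3.4% of genes were lower and 5.26% higher. The 3 were Slc16a3 (log2 ratio -3.20, interval -3.33 to -3.07), Pdk1 (-2.00, interval -2.07 to -1.93) and Ldha (-1.04, interval -1.06 to -1.02). Only 43 of the 15492 genes had a lower ratio than Slc16a3 and 234 a lower ratio than Pdk1. Pgk1 (-0.72) and Slc2a3 (-0.71) lay just short of the limit and passed it when libraries were scaled by their size alone. Hk2 (-0.59), Pkm (-0.55) and Slc2a1 (-0.51) were lower by less, Pfkp differed little (-0.07), and Eno1 was higher (0.21). The median of the 10 was -0.65, against -0.01 over all genes tested. The same 2 libraries also differed in the neuron and mesenchyme markers given above. The part of cell composition in the differences of the 10 genes was not tested. If the pair of labels is exchanged, the sign of each of the 10 ratios turns.

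**Figure D4:**
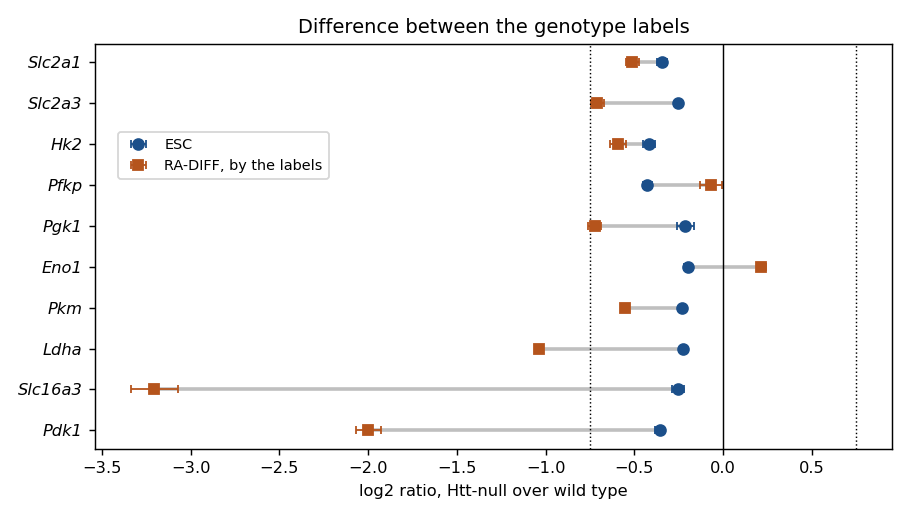
Log2 ratio of the Htt-null over the wild-type label for the 10 genes in ESC (circles) and RA-DIFF (squares), with 95% intervals of counting error and the fold limit of 0.75 as dotted lines. All circles lie between -0.43 and -0.20, and the squares of Slc16a3, Pdk1 and Ldha lie beyond the limit.

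The order of the 4 libraries was the same for 8 of the 10 genes: highest in wild-type ESC, then Htt-null ESC, then the RA-DIFF library labelled wild type and lowest in that labelled Htt-null. Of all genes tested, 10.7% had this order. A log2 ratio below 0 under both genotype comparisons was found for 9 of the 10 (all but Eno1) and for 26.2% of all genes tested. Under exchanged RA-DIFF labels it was found for 1 of the 10 (Eno1) and for 28.4% of all genes tested. Among genes outside the lists used here, those whose profile over the 4 libraries lay closest to the median of the 10 were Smarca5-ps, Dmxl2, Hacl1, Pkn3 and Smyd3, at Euclidean distances from 0.0885 to 0.168 on the centred log2 CPM. Of the 10 genes themselves, Slc2a1 (0.098) and Hk2 (0.136) lay as close.

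The level kept after RA differentiation was set beside that of the pluripotency genes, since these cells hold a remainder of stem cell transcripts. Slc16a3 kept 25.1% of its ESC level in the RA-DIFF cells labelled wild type and 3.23% in those labelled Htt-null, Pdk1 20.5% and 6.55%, and Ldha 62.0% and 35.3%. Of the 10 pluripotency genes, the 8 other than Sox2 and Klf4, both of which are also expressed in other cell types, kept 0.366% to 2.75% (median 1.19%) in the library labelled wild type and 0.0264% to 1.19% (median 0.178%) in that labelled Htt-null. Pou5f1 (Oct4) kept 1.56% and 0.190%. Sox2 kept 36.9% and 42.9% and Klf4 5.43% and 7.25%, so over all 10 pluripotency genes the range was 0.366% to 36.9% in the library labelled wild type and 0.0264% to 42.9% in that labelled Htt-null, and it overlapped that of the glycolysis and transport genes (8.72% to 131.7% and 3.23% to 92.3%). Under the Htt-null label, 8 of the 10 glycolysis and transport genes (all but Pfkp and Eno1) and 8 of the 10 pluripotency genes (all but Sox2 and Klf4) kept less than under the wild-type label, as did 47.3% of all genes tested. With the RA-DIFF labels exchanged, 1 gene of each set kept less under the Htt-null label, against 49.1% of all genes tested.

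**Figure D5:**
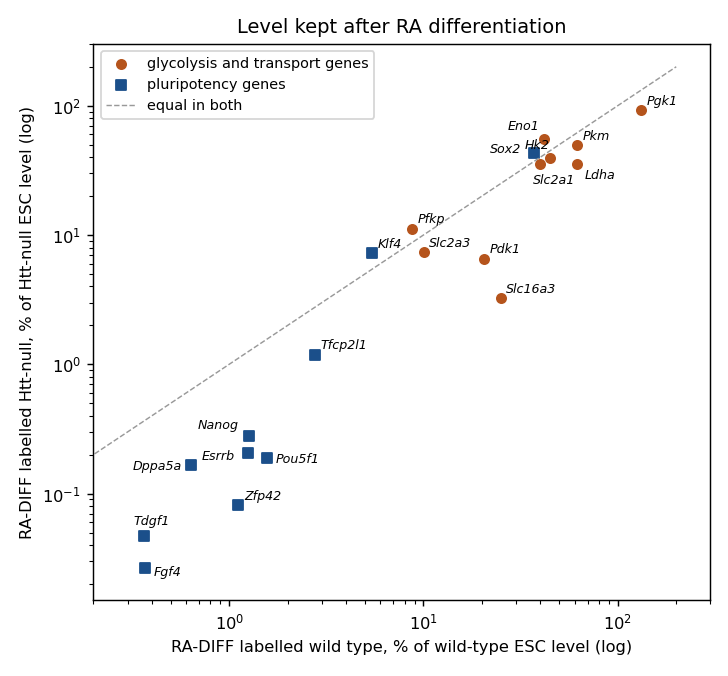
Level in RA-DIFF as a percentage of the ESC level of the same label, for the library labelled wild type (x) and that labelled Htt-null (y), on log axes, for the 10 genes (circles) and 10 pluripotency genes (squares), with the dashed line at equality. Slc16a3 (25.1% and 3.23%) and Pdk1 (20.5% and 6.55%) lie farthest below the line among the circles.

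Of 24 other glycolysis enzymes, 23 were in the table and 19 above the low limit. With RA, 5 of the 19 were higher and 4 lower in the cells labelled wild type, and 6 were higher and 6 lower in those labelled Htt-null, with medians of -0.01 and -0.43. Over all genes tested, 33.9% were higher and 26.1% lower in the cells labelled wild type, and 34.3% and 24.8% in those labelled Htt-null, which are the shares to set beside these and the counts of the lists that follow. Aldoc, the brain aldolase (1.66 and 2.07), and Eno2, the neuronal enolase (1.30 and 0.98), were higher, while Ldhb, the heart-type lactate dehydrogenase subunit, was lower (-1.26 and -1.51). Ldhc, the testis-type subunit, had 266 and 218 counts in ESC and 6 and 1 in RA-DIFF. Aldoa, the muscle-type aldolase, singled out after its values were seen, was lower (-1.91 and -2.11). In ESC, 1 of the 19 was higher and 1 lower in Htt-null cells (median 0.10), where 5.14% of all genes tested were higher and 3.47% lower. In RA-DIFF by the labels, 2 were higher, with Eno4 (1.08) among them, and Pfkl (-1.24) was among 2 that were lower. The median of the 19 was -0.22 there, and 11.7% of all genes tested were higher and 8.99% lower. The second of the 2 lower ones was Ldhc, at 6 and 1 counts, near the limit of detection.

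The 5 enzymes that set fructose 2,6-bisphosphate, the activator of phosphofructokinase, went both ways with RA, with 2 higher and 2 lower in the cells labelled wild type and 3 higher and 2 lower in those labelled Htt-null. Pfkfb4 (2.29 and 2.34) was higher and Tigar, which removes this activator, was lower (-1.34 and -1.37), and none of the 5 passed the limit between the genotype labels at either stage. Of the 12 other sugar and monocarboxylate carriers and chaperones above the low limit, 6 were higher and 5 lower with RA under each label. Slc2a10 (5.40 and 6.39), Slc2a12 (4.50 and 5.31) and Slc2a9 (2.38 and 5.41) were higher under both labels, from 4 and 6, 69 and 24, and 12 and 4 counts in wild-type and Htt-null ESC. Slc5a1 (-4.51 and -4.31) and Slc2a5 (-2.79 and -4.02) were lower under both labels. In RA-DIFF by the labels, 3 of the 12 were higher and 0 lower, where 11.7% of all genes tested were higher and 8.99% lower. The 3 were Slc2a9 (2.09), Slc2a10 (1.73) and Slc5a1 (0.93), the last on only 6 and 12 counts. In ESC, 1 of the 12 was higher and 3 were lower in Htt-null cells, each on at most 69 counts. Of all genes tested, 5.14% were higher and 3.47% lower in ESC. Of the 13 genes of pyruvate entry into mitochondria, 3 were higher and 5 lower with RA in the cells labelled wild type, and 3 higher and 3 lower in those labelled Htt-null. The pyruvate carrier subunit Mpc1 was the only 1 of them past the limit between the RA-DIFF labels (0.81, higher), from 25.7 to 44.9 CPM.

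Of the 18 genes induced by hypoxia outside glycolysis, 4 were higher and 5 lower with RA in the cells labelled wild type, and 3 were higher and 7 lower in those labelled Htt-null. Between the RA-DIFF libraries, 4 were lower and 3 higher under the Htt-null label (median -0.31), where 8.99% of all genes tested were lower and 11.7% higher. Bnip3, a mitophagy receptor, was lower (-2.16), at 71.0 and 15.9 CPM, and so was Ankrd37 (-1.84), while Adm, the vasodilator peptide adrenomedullin (2.92), and Egln3, a HIF prolyl hydroxylase (1.51), were higher. The regulators themselves showed no common direction. Of 9, 1 was higher (Epas1, 1.77) and 1 lower (Mycn, -1.01) in the library labelled Htt-null. With RA, 3 of the 9 were higher and 4 lower in the cells labelled wild type, and 2 were higher and 2 lower in those labelled Htt-null. Myc (1.89 and 2.28) and Vhl (0.99 and 1.19) were higher, while Mycn (-0.98 and -1.98), Epas1 (-2.82 and -1.24) and, in the cells labelled wild type, Arnt (-1.05) were lower. Of the 10 genes of the pentose phosphate and serine branches, 1 was higher and 1 lower with RA under each label and 0 in RA-DIFF by the labels (median 0.06). Phgdh, which opens the serine branch, was the gene that was higher (1.14 and 1.23). Of 5 gluconeogenesis genes above the low limit, 1 was higher and 3 lower with RA in the cells labelled wild type, and 2 were higher and 2 lower in those labelled Htt-null. The fructose bisphosphatases Fbp1 (-3.78 and -2.50) and Fbp2 (-3.53 and -4.61) were lower, and 2 of the 5 were higher between the RA-DIFF libraries, Pcx (0.97) and Fbp1 (1.38), the latter on 12 and 31 counts. In ESC, 0 of the 9 regulators passed the limit in either direction (median -0.17), where 5.14% of all genes tested were higher and 3.47% lower.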

How the data were processed

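The data were 4 RNA-seq libraries, 1 per condition. The authors aligned 50 bp paired-end reads from poly-A-plus, strand-specific (dUTP) libraries to GRCm38.p4 with TopHat2 2.0.14, counted them per GENCODE gene with HTSeq 0.6.1 and deposited raw counts, with no normalization. The strand option of the counting is not named, and the study's methods state in general that defaults applied to settings they do not give. Library groups were taken from the sample labels. The small RNA table was not used. TMM factors over the 4 libraries, CPM and log2 ratios (prior count 2) were computed with edgeR 4.0.16 in R 4.3.3. A gene was called when its log2 ratio was beyond 0.75 in either direction and its average log2 CPM above 0. Conditions have no replicates from which their spread could be estimated. An additive model of stage and genotype, which would take their interaction as error, was not fitted, and no p-value is given. Wilson intervals (95%) cover counting error only. Positions and exon lengths come from GENCODE vM21 on GRCm38, where all 10 genes matched the deposited positions. Copies were sought with BLAST 2.17.0, and tables and figures were made with Python 3.11.15. The step was tested on simulated data.

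The 10 genes and the gene lists were chosen with earlier results of these data known. Named genes were the 10, Htt, their paralogs, per list and comparison up to 2 genes with the largest increase and 2 with the largest decrease past the limit, provided the higher library had 100 counts or more, and the 5 genes nearest the median profile. Genes outside these are named as chosen after their values were seen, or for a count of a list. Some genes covered by the rule are not reported here. Alternatives were scaling by DESeq2 1.42.0 size factors or by library size alone, no limit on low counts, a prior count of 0.125, a fold limit of 1, an added exact test at an assumed dispersion of 0.1 (the value of the Methods) or 0.01, and exchanged RA-DIFF labels.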

Additional observations from a re-analysis of the deposited data

How the results depend on the processing

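With 1 library per condition, leaving out a replicate was not possible, and the depth limits a value by its counting error only. No paired analysis was run, because each condition has 1 library and the labels give no replicate numbers. Scaling by DESeq2 size factors moved the median log2 ratio of the 10 genes to -1.35 for RA in the cells labelled wild type and to -0.28 for the genotypes in ESC. Scaling by library size alone gave medians of -1.26 and -1.57 for RA in the cells labelled wild type and Htt-null, -0.20 in ESC and -0.70 in RA-DIFF, where 5 genes in place of 3 were lower. These scalings moved the median of all genes by -0.0716 to 0.0517 on the log2 scale. The RA-DIFF labels, which the Htt counts run opposite to but cannot settle, decide the direction in RA-DIFF. With them exchanged, the medians were -1.80 and -1.03 for RA, with 9 genes lower for wild type (in place of 7) and 6 for Htt-null (in place of 9), and 0.65 in RA-DIFF, with 3 genes higher and 0 lower there: Slc16a3 (3.20), Pdk1 (2.00) and Ldha (1.04). With the exact test at a dispersion of 0.1 added, 5 and 7 genes were lower with RA in the cells labelled wild type and Htt-null, and 2 in RA-DIFF (Slc16a3 and Pdk1), where 17.3%, 15.9% and 3.4% of all genes were. In the counts of genes past the limit, no low limit, the smaller prior count and the added test at 0.01 changed none, and a fold limit of 1 changed 1 count, from 9 to 8 (Eno1).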
